A study of Xenopus laevis with 8 samples.

Results

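The genes described here encode the proteins of the cytoplasmic ribosome. They were chosen by name: every entry whose identifier begins with *rpl*, *rplp* or *rps* and a digit, or with *rpsa*, was taken, and 10 entries for ribosomal protein kinases and an *rps19*-binding protein were left out. This gave 122 of 49086 entries, of which 66 belong to the large subunit, 5 to its stalk and 51 to the small subunit. *X. laevis* is allotetraploid, and 65 entries carry the suffix .L and 53 the suffix .S of its subgenomes, while *rps4*, *rps7*, *rps9* and *rps10* stand without a suffix. Expression was tested for 119 of them among 25448 entries in all. The untested entries were *rpl3l.L*, *rpl3l.S* and *rpl35a.L*, none of which exceeded 17 counts in any library, and 118 of the 122 had at least 10 counts in every library.

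RNA was sequenced from whole *X. laevis* embryos, either late blastulae (stage 9) or gastrulae (stage 10.5). M/Z embryos came from eggs of *wnt11b* mutant females, and +/Z embryos came from eggs of wild-type females. Mutant sperm was used for both, so that +/Z embryos carried a mutant paternal allele and the mother differed together with the genotype. Each of the 4 groups had 2 replicates, each a pool of 3 embryos. The females behind the pools are not named in the sources used here, and p-values may therefore measure only the spread between pools. The mutant allele is a small deletion that counts per gene do not show: at stage 9, *wnt11b.L* counts were 1352 and 1329 with M/Z, against 1304 and 789 with +/Z, and at stage 10.5 they were 1915 and 1307 with M/Z, against 1883 and 1333 with +/Z. These counts of the mutated gene are not scaled for library totals, which differ, and no test of it is given here. They do not check the labels.

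Ribosomal proteins are made in near equal numbers, since each ribosome holds a single copy of most of them, and their mRNAs share a 5′ terminal oligopyrimidine (TOP) tract through which the mTOR pathway and the RNA-binding protein Larp1 control their translation. In the frog, the oocyte stores ribosomes for the cleaving embryo, and embryos without nucleoli, which cannot make new rRNA, survive past gastrulation on that store. New ribosomal protein mRNA accumulates after zygotic transcription begins.

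Library totals ranged from 24720921 to 37265579 counts. CPM, the counts of a gene relative to its library's total, were scaled by trimmed mean of M values (TMM) library sizes, and a gene passed where the *edgeR* quasi-likelihood test gave a Benjamini-Hochberg adjusted p under 0.05 over all 25448 entries. Changes are log2 fold changes. The levels of different genes are not compared, because transcript lengths were not used. A lower value in a pool may come from fewer expressing cells or from less RNA per cell, which cannot be told apart in bulk RNA. As a check of stage, 15 of 17 entries for gastrula genes such as *chrd*, *gsc* and *mixer* rose between the stages in +/Z embryos. In M/Z embryos 15 rose and 1 fell. Relative to +/Z embryos at stage 10.5, 2 of the 17 passed as higher and 4 as lower in M/Z embryos (median -0.64). Whether the genotypes had reached the same point of gastrulation was not tested.

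In these poly(A) libraries, ribosomal protein transcripts rose between stage 9 and stage 10.5 in both genotypes. A change in RNA level and one in polyadenylation cannot be told apart here. In +/Z embryos the summed level of the 119 tested entries was 6006 and 7897 CPM at stage 10.5, against 1835 and 1801 CPM at stage 9, a ratio of means of 3.82. In M/Z embryos it was 6044 and 3716 CPM at stage 10.5, against 1987 and 2583 CPM at stage 9, a ratio of 2.14. The stages did not overlap in either genotype. The genotypes overlapped at stage 10.5, where M/Z replicate 1 lay just above the lower +/Z library and M/Z replicate 2 lay below both, and at stage 9 both M/Z libraries lay above both +/Z libraries.

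**Figure D1:**
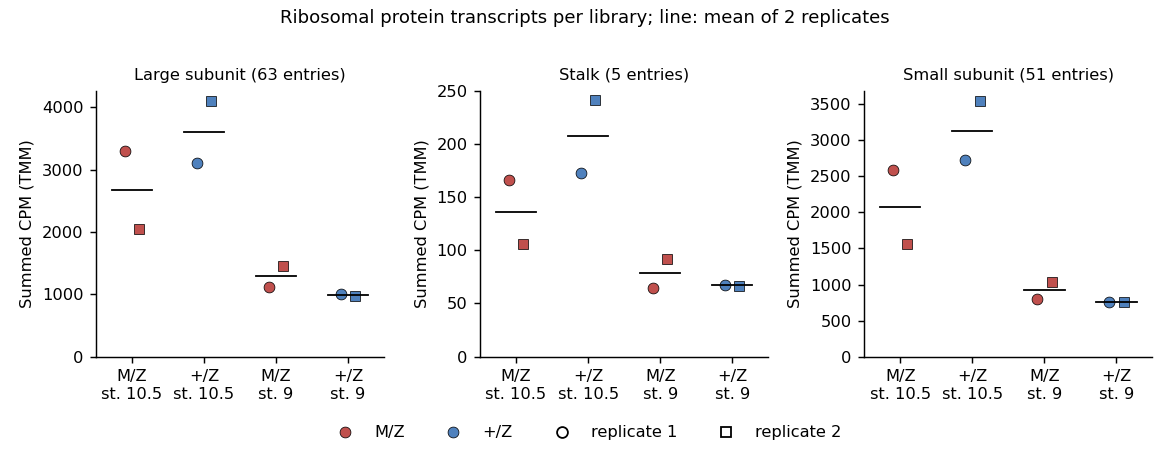
Summed CPM of the large subunit, stalk and small subunit entries in each library, by genotype and stage, with a line at the mean of 2 replicates. In all 3 panels the stage 10.5 libraries sit above the stage 9 libraries, and M/Z stage 10.5 replicate 2 (2046, 105.7 and 1564 CPM) is the lowest of its stage.

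In +/Z embryos, 117 of the 119 entries were higher at stage 10.5 than at stage 9 by the test and none was lower, whereas 23.3% of all tested entries rose and 23.2% fell. The median log2 fold change was 2.03 (quartiles 1.57 and 2.55), against 0.01 over all tested entries. The 2 entries that did not pass were *rpl13.L* (log2 fold change 1.57, adjusted p = 0.101) and *rps24.L* (1.15, adjusted p = 0.0612), which had low counts, at most 89 in any library. All other entries rose, with fold changes between 0.69 for *rpl24.S* and 4.70 for *rps21.S*. The 3 parts of the ribosome had similar medians, with 2.08 for the large subunit, 1.83 for the stalk and 2.03 for the small subunit.

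The largest rises were those of *rps21.S*, *rpl37.S*, *rpl26.S* and *rps21.L*. *rps21* encodes a small subunit protein. In +/Z embryos, *rps21.S* had 18.3 and 18.7 CPM at stage 10.5, against 0.580 and 0.840 CPM at stage 9 (log2 fold change 4.70 ± 0.44 (SE), adjusted p = 7.4e-05). *rpl37.S*, for a large subunit protein, had 17.3 and 25.5 CPM at stage 10.5, against 0.806 and 0.878 CPM at stage 9 (4.66 ± 0.46, adjusted p = 8.7e-05). *rpl26.S*, whose product lies near the exit of the peptide tunnel, had 27.2 and 35.5 CPM at stage 10.5, against 1.71 and 1.60 CPM at stage 9 (4.24 ± 0.35, adjusted p = 4.5e-05). All 3 lay below 2 CPM at stage 9, and their stages did not overlap. *rps21.L* had 1.83 and 1.86 CPM at stage 10.5, against 0.161 and 0.115 CPM at stage 9 (3.69 ± 0.57, adjusted p = 0.000786), values that rest on 5 and 3 counts at stage 9. Each of the 4 calls was kept without any single library.

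In M/Z embryos, 90 of the 119 entries rose and none fell, against 16.7% and 15.6% of all tested entries. The median was 1.25, with quartiles of 0.85 and 1.63, and all 119 fold changes were above 0. The highest was that of *rpl29.L*, 2.92, and the lowest that of *rpl24.S*, 0.16. The 29 entries that did not pass include *rps19.L*, *rpsa.L*, *rpl4.S* and *rplp0.S*. This count depended on single libraries. It fell most without M/Z stage 9 replicate 1 and without M/Z stage 10.5 replicate 1, and less without each other stage 9 library. In all of these fits the number of rises over all tested entries fell as well. In the first 2 of them the medians were 1.08 and 0.78, and 119 of 120 and 113 of 119 fold changes were above 0. The median was 1.54 without M/Z stage 10.5 replicate 2.

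The stalk is the flexible arm of the large subunit that recruits translation factors, built on Rplp0 with Rplp1 and Rplp2 attached. Its 5 entries all rose in +/Z embryos, by 1.83 for *rplp0.L*, 0.99 for *rplp0.S*, 1.90 for *rplp1.L*, 1.73 for *rplp2.L* and 1.93 for *rplp2.S*. In M/Z embryos *rplp0.L* (0.97) and *rplp1.L* (1.15) passed. Between the genotypes, no stalk entry passed at either stage, and all 5 fold changes were above 0 at stage 9 (0.08 to 0.56) and below 0 at stage 10.5 (-0.84 to -0.56).

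Of the paralogs that are named after a ribosomal protein, those of *rpl7* and *rpl22* were also higher at stage 10.5 in +/Z embryos. *rpl7l1.L*, related to *rpl7*, had 146 and 161 CPM at stage 10.5, against 76.1 and 66.0 CPM at stage 9, in +/Z embryos (log2 fold change 1.11, adjusted p = 0.00243). *rpl22l1.L*, related to *rpl22*, had 5.01 and 6.85 CPM at stage 10.5, against 1.29 and 2.06 CPM at stage 9 (1.83, adjusted p = 0.0026). In M/Z embryos *rpl7l1.L* rose (0.78, adjusted p = 0.0202), and *rpl22l1.L* did not pass (0.61, adjusted p = 0.189). *rpl3l*, which in mammals replaces *rpl3* in heart and skeletal muscle, had at most 5 counts in any library in either homeolog.

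In 3 of the 4 groups the replicates differed for nearly all members in the same direction. M/Z stage 10.5 replicate 2 was below replicate 1 for 119 of 119 entries, with a median ratio of 0.592, and M/Z stage 9 replicate 2 was above replicate 1 for 118, with a median ratio of 1.31. In +/Z embryos replicate 2 was above replicate 1 for 115 entries at stage 10.5 (1.35) and for 54 at stage 9 (0.986). Over all tested entries the median ratio was between 1.0 and 1.01 in each group. Outside the +/Z stage 9 group the ribosomal protein genes of a pool thus lay on the same side of the other replicate, and the members are not independent of each other. Of the 17 gastrula gene entries, 15 were also lower in M/Z stage 10.5 replicate 2 than in replicate 1. Replicate 2 was below both +/Z libraries for 14 of them and replicate 1 for 9, with no share of all tested entries taken. The part of such a difference between pools in the results was not tested.

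**Figure D2:**
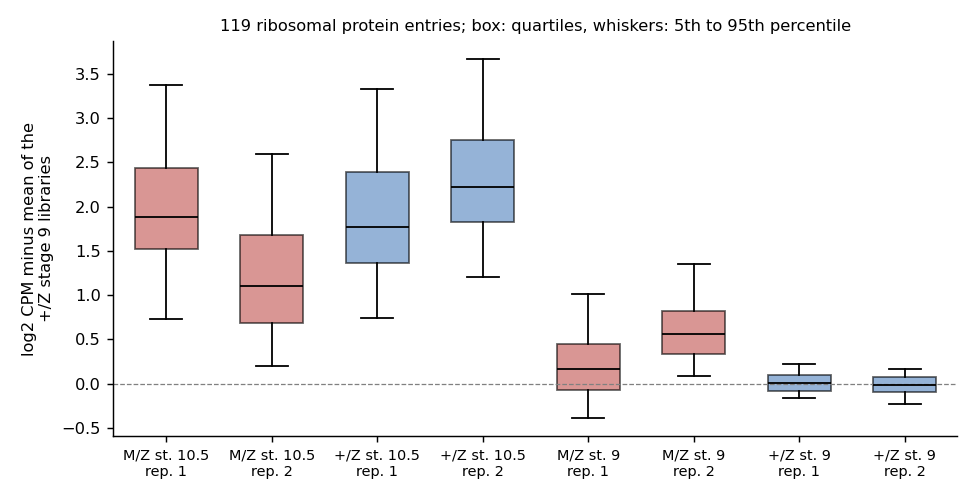
Log2 CPM of the 119 entries in each library minus their mean in the +/Z stage 9 libraries, as boxes of quartiles with whiskers from the 5th to the 95th percentile. The median is 1.88 in M/Z stage 10.5 replicate 1 and 1.11 in replicate 2, and 0.17 and 0.56 in the M/Z stage 9 replicates.

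M/Z embryos, with mutant alleles from both egg and sperm, were compared with +/Z embryos at stage 9. The egg's genotype, the embryo's own genotype and the mother cannot be told apart in this comparison. The members took 0.224% and 0.292% of counts in M/Z embryos, against 0.195% and 0.191% in +/Z embryos, a difference of 0.0648 percentage points (exact two-sided permutation test, p = 0.333, the smallest that 2 against 2 libraries allow). The difference was 0.099 without M/Z replicate 1 and 0.0306 without M/Z replicate 2. Of the 119 entries, 6 were higher in M/Z embryos and 1 was lower, shares close to or below the 6.01% and 5.93% of all tested entries. The median was 0.40, against 0.00 over all tested entries, and 101 fold changes were above 0. Both M/Z libraries lay above both +/Z libraries for 74 entries (62.2%) and below for 4, where 31.8% of all tested entries lay above and 31.8% below. Replicate 1 alone lay above both +/Z libraries for 74 entries and replicate 2 for 107. The share of all tested entries was not taken for a single library, so these 2 counts only compare the replicates.

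Of the entries higher in M/Z embryos at stage 9, 5 belong to the large subunit. *rpl8.L* encodes a protein near the peptidyl transferase centre. It had 4.65 and 6.19 CPM in M/Z embryos, against 1.45 and 1.41 CPM in +/Z embryos (log2 fold change 1.92 ± 0.36 (SE), adjusted p = 0.00811). *rpl22.L* had 23.0 and 29.1 CPM in M/Z embryos, against 9.73 and 11.3 CPM in +/Z embryos (1.31 ± 0.30, adjusted p = 0.0188). Mice without Rpl22 are viable, with a defect in T cell development. *rpl5.S*, whose product binds 5S rRNA, had 37.4 and 44.1 CPM in M/Z embryos, against 21.4 and 19.1 CPM in +/Z embryos (1.01 ± 0.23, adjusted p = 0.021). *rpl24.L*, for a protein that bridges the subunits, had 13.6 and 17.2 CPM in M/Z embryos, against 6.83 and 6.57 CPM in +/Z embryos (1.20 ± 0.30, adjusted p = 0.0301). The genotypes were apart for each of these, and *rpl21.L* also passed (1.40, adjusted p = 0.0318).

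*rps21.L* was the small subunit entry higher in M/Z embryos at stage 9, with 0.572 and 1.01 CPM, against 0.161 and 0.115 CPM in +/Z embryos (log2 fold change 2.47 ± 0.58, adjusted p = 0.0224). These values rest on few counts, 24 and 36 with M/Z, against 5 and 3 with +/Z. No entry was called without M/Z replicate 2 or without either +/Z replicate of this stage, and 2 were called without M/Z replicate 1. The number of calls over all tested entries also fell in these fits. The median of the members was 0.17 without M/Z replicate 2 and 0.55 without M/Z replicate 1.

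At stage 10.5 the members took 0.570% and 0.375% of counts in M/Z embryos, against 0.510% and 0.677% in +/Z embryos, a difference of -0.121 percentage points (exact two-sided permutation test, p = 0.667). This difference was -0.218 without M/Z replicate 1, -0.023 without M/Z replicate 2, -0.204 without +/Z replicate 1 and -0.0369 without +/Z replicate 2. None of the 119 entries was higher in M/Z embryos and 5 were lower, against 6.68% and 6.39% of all tested entries. *DESeq2*, run without the *edgeR* filter for low counts, called 0 of 122 higher and 15 lower. Of its 38597 entries, many of which *edgeR* did not test, it called 2194 and 2126. An entry without an adjusted p counted as not called, so shares of the 38597 are not comparable with those of *edgeR*. The median was -0.53, against 0.02 over all tested entries, and 111 fold changes were below 0. Both M/Z libraries lay below both +/Z libraries for 55 entries (46.2%), where 27.1% of all tested entries did, and above for 1, where 26.7% did. M/Z replicate 2 lay below both +/Z libraries for 114 entries and replicate 1 for 55. For a single library the share of all tested entries was not taken, so these 2 counts only compare the replicates.

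Of the entries lower in M/Z embryos at stage 10.5, 3 encode small subunit proteins. *rps20.S*, for a protein of the subunit's head, had 79.2 and 39.7 CPM in M/Z embryos, against 109 and 155 CPM in +/Z embryos (log2 fold change -1.15 ± 0.30, adjusted p = 0.0364). *rps27a.S*, which encodes ubiquitin fused to a ribosomal protein, had 49.7 and 26.1 CPM in M/Z embryos, against 66.1 and 88.1 CPM in +/Z embryos (-1.02 ± 0.30, adjusted p = 0.0491). In both, replicate 2 of the M/Z embryos was the lowest library of the stage. *rpl17.L* and *rpl17.S* encode a protein that lines the peptide exit tunnel. *rpl17.L* had 35.1 and 23.3 CPM in M/Z embryos, against 49.1 and 64.0 CPM in +/Z embryos (-0.95 ± 0.26, adjusted p = 0.0412). *rpl17.S* had 36.9 and 20.7 CPM in M/Z embryos, against 48.7 and 68.9 CPM in +/Z embryos (-1.03 ± 0.29, adjusted p = 0.0454). Both homeologs were lower, with no overlap of the genotypes. The number of lower entries depended on single libraries. It was larger without replicate 1 of either genotype at stage 10.5 and smaller without any other single library. The number over all tested entries moved in the same directions, and least without +/Z replicate 1. The sizes of these changes were not compared. The median was -0.92 without M/Z replicate 1, -0.29 without +/Z replicate 2 and -0.16 without M/Z replicate 2. Over all tested entries it was -0.000246, 0.0381 and -0.0146 in the same order.

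*rps19.L* was the only member that passed at both stages. Rps19 is needed for maturation of the small subunit, and mutations of its gene cause Diamond-Blackfan anaemia in people. At stage 9 *rps19.L* had 2.15 and 2.22 CPM in M/Z embryos, against 5.74 and 5.08 CPM in +/Z embryos (log2 fold change -1.31 ± 0.37, adjusted p = 0.0488). The stage 10.5 values were 3.29 and 2.47 CPM in M/Z embryos, against 7.30 and 15.2 CPM in +/Z embryos (-1.97 ± 0.37, adjusted p = 0.00926). The genotypes did not overlap at either stage. Over both stages the fold change was -1.64 ± 0.26 (adjusted p = 0.00186), and this call was kept without each of the 8 libraries in turn, with fold changes from -1.85 to -1.32. The stage 9 call was lost without any 1 of the 4 stage 9 libraries, with library totals in place of TMM and with a filter of at least 10 counts in every library, and the stage 10.5 call was lost without M/Z stage 10.5 replicate 2. Its homeolog *rps19.S* had 26.7 and 34.8 CPM in M/Z embryos, against 27.7 and 30.7 CPM in +/Z embryos, at stage 9, and 95.9 and 63.3 CPM in M/Z embryos, against 117 and 163 CPM in +/Z embryos, at stage 10.5. It did not pass over both stages (-0.37, adjusted p = 0.153).

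**Figure D3:**
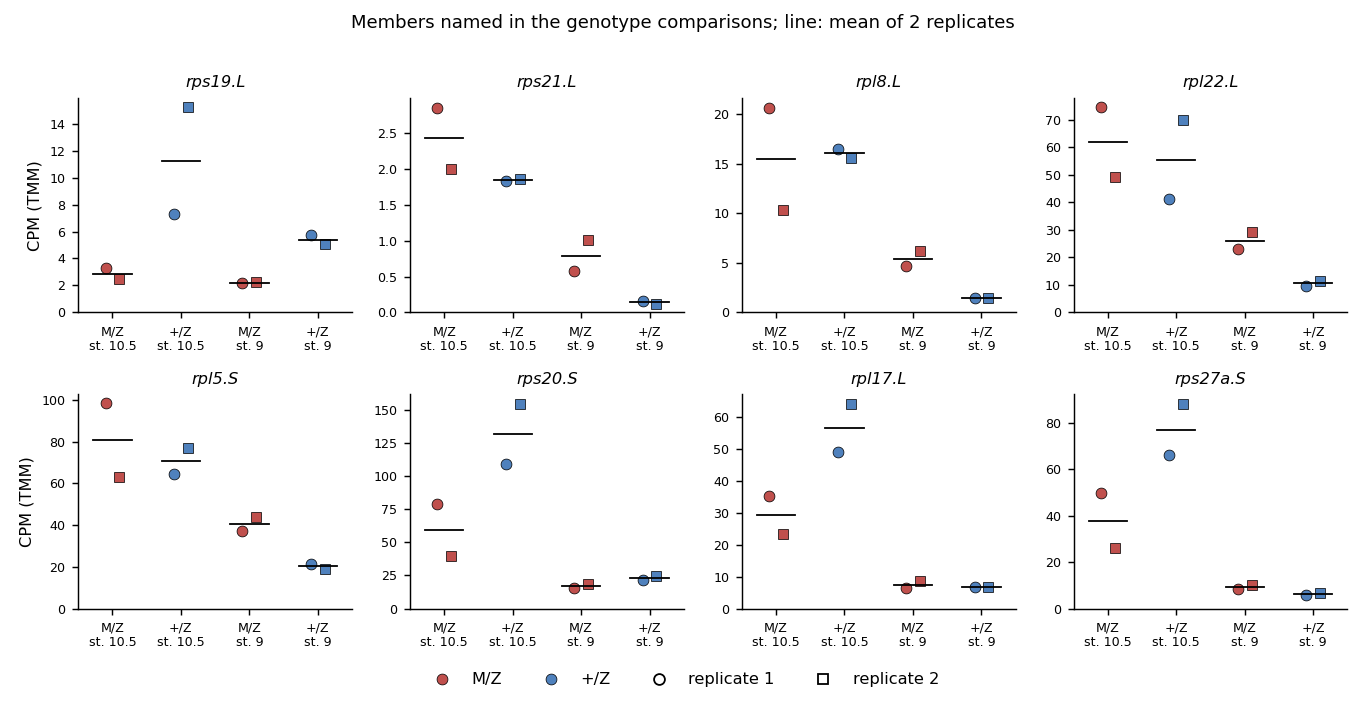
CPM of 8 entries in each library, by genotype and stage, with a line at the mean of 2 replicates. *rps19.L* is lower in M/Z embryos at both stages, *rps21.L*, *rpl8.L*, *rpl22.L* and *rpl5.S* are higher in M/Z embryos at stage 9, and *rps20.S*, *rpl17.L* and *rps27a.S* are lower in M/Z embryos at stage 10.5.

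Over both stages together, 4 entries passed as higher and 3 as lower in M/Z embryos, against 12% and 12% of all tested entries, and the median was -0.08. The higher entries were *rpl8.L* (0.93), *rpl22.L* (0.73), *rpl5.S* (0.60) and *rps21.L* (1.43). Each had passed at stage 9, and none passed at stage 10.5, where the fold changes were -0.05, 0.16, 0.19 and 0.40 in the same order. The lower entries were *rps19.L*, *rps20.S* (-0.78) and *rps16.L*, for a protein that touches the tRNA in the decoding site. *rps16.L* had 4.19 and 5.54 CPM in M/Z embryos, against 6.03 and 7.10 CPM in +/Z embryos, for the stage 9 pools. The stage 10.5 pools had 19.1 and 9.28 CPM in M/Z embryos, against 25.3 and 39.1 CPM in +/Z embryos (over both stages -0.81 ± 0.25, adjusted p = 0.0446). The genotypes did not overlap at either stage, but the call was lost in 6 of the 8 fits that left out a library, those without M/Z stage 10.5 replicate 1 and without +/Z stage 10.5 replicate 1 being the exceptions, and with library totals or the filter of at least 10 counts. The number of calls depended on single libraries, as did the number over all tested entries. The median of the members was -0.269 without M/Z stage 10.5 replicate 1 and 0.095 without M/Z stage 10.5 replicate 2.

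The genotype difference was lower at stage 10.5 than at stage 9 for 117 of the 119 entries, with a median difference of -0.84, against 0.03 over all tested entries. None passed after adjustment, where 0.0472% of all tested entries did. At an unadjusted p under 0.05, 53 entries (44.5%) had a lower genotype difference at stage 10.5, against 5.22% of all tested entries. After adjustment *DESeq2*, run without the *edgeR* filter for low counts, called 5 of 122 as lower at stage 10.5 and 0 as higher. Of its 38597 entries, many of which *edgeR* did not test, it called 166 and 111. The median difference was -1.28 without M/Z stage 10.5 replicate 1 and -0.52 without M/Z stage 10.5 replicate 2. In 93 entries the fold change was above 0 at stage 9 and below 0 at stage 10.5, in 18 it was below 0 at both and in 8 above 0 at both. Both M/Z libraries lay above both +/Z libraries at stage 9 and below both at stage 10.5 for 26 entries (21.8%), where 2.69% of all tested entries showed this. Across the 119 entries the fold changes of the stages had a Pearson r of 0.585, and across all tested entries one of 0.689. Genes are not independent replicates, and the points share libraries, so this is a description.

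**Figure D4:**
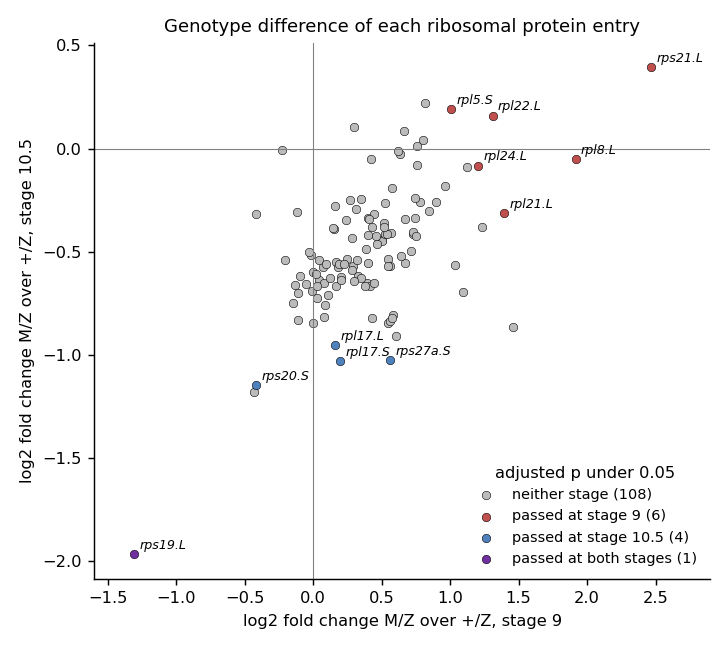
Log2 fold change of M/Z over +/Z for each of the 119 entries at stage 9 (horizontal) and stage 10.5 (vertical), coloured by the stages at which the adjusted p was under 0.05. Most points lie right of 0 and below 0, and *rps19.L* stands alone at the lower left (-1.31 and -1.97).

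Homeologs of a gene encode nearly the same protein, and *RSEM* divides reads that match both copies, so the split between them is uncertain. Both copies were tested in 37 pairs. Between the stages in +/Z embryos the .L copy had the larger rise in 18 pairs, and the median absolute difference between the rises of the copies was 0.65. In *rps6*, for the protein that S6 kinases phosphorylate, the .L copy held 68.5% and 62.6% of the pair's counts at stage 10.5, against 37.2% and 37.9% at stage 9. In *rpsa* it held 20.2% and 18.7% at stage 10.5, against 45.3% and 40.2% at stage 9. The stages were apart in both pairs, in opposite directions. The difference between the copies was not tested.

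Between the genotypes, the .L share was apart at stage 9 in 28 of the 37 pairs, where 71% of 4531 pairs of any genes were apart, and at stage 10.5 in 20, where 56.2% were. It was apart at both stages in the same direction in 13 pairs, where 37.1% of all pairs were, so the members' shares were near those of other pairs. The median absolute difference was 5.58 percentage points at stage 9 and 2.87 at stage 10.5. Over all pairs it was 4.62 and 4.92. In 8 pairs (21.6%) the means differed by over 5 percentage points at both stages in the same direction, where 26.9% of all pairs did, and these pairs are given as a description. In *rpl8* the .L share was 30.0% and 27.9% in M/Z embryos, against 9.15% and 11.3% in +/Z embryos, at stage 9, and 45.7% and 41.5% in M/Z embryos, against 36.7% and 34.3% in +/Z embryos, at stage 10.5. In *rps20* it was 72.9% and 75.6% in M/Z embryos, against 59.1% and 59.5% in +/Z embryos, at stage 9, and 63.7% and 68.9% in M/Z embryos, against 58.6% and 61.1% in +/Z embryos, at stage 10.5. The .L share was higher in M/Z embryos in both pairs. In *rps19*, which is not among the 8, it was 7.43% and 6.00% in M/Z embryos, against 17.2% and 14.2% in +/Z embryos, at stage 9, and 3.31% and 3.75% in M/Z embryos, against 5.86% and 8.57% in +/Z embryos, at stage 10.5. No pair had both copies pass over both stages in opposite directions.

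**Figure D5:**
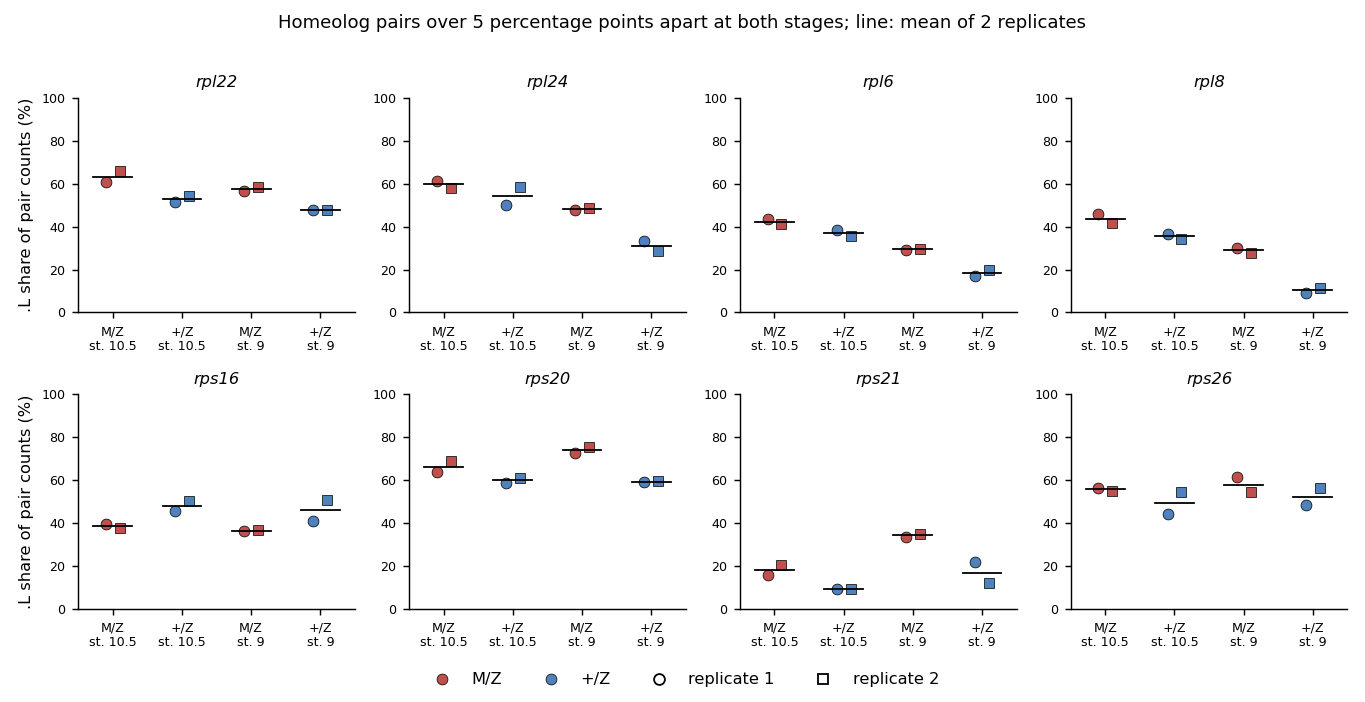
Share of the pair's counts held by the .L copy in each library, for the 8 pairs whose genotype means differ by over 5 percentage points at both stages, with a line at the mean of 2 replicates. The share is higher in M/Z embryos in *rpl22*, *rpl24*, *rpl6*, *rpl8*, *rps20*, *rps21* and *rps26* and lower in *rps16*, and single replicates overlap in *rps26* at stage 9 and in *rpl24* at stage 10.5.

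Other genes of translation are given for comparison. Of all tested entries, 6.01% passed as higher and 5.93% as lower in M/Z embryos at stage 9, and 6.68% and 6.39% at stage 10.5. Of the members, 5.04% and 0.84% passed at stage 9, and 0.0% and 4.2% at stage 10.5. Between the stages in +/Z embryos, 23.3% of all tested entries rose and 23.2% fell. Mitochondrial ribosomal proteins, which build a separate ribosome, had a median rise of 0.41 in +/Z embryos, with 31 of 91 higher and 9 lower. In M/Z relative to +/Z embryos, 2 passed as higher and 3 as lower at stage 9, and 2 as higher and 11 as lower at stage 10.5 (median -0.33). Their summed level in +/Z embryos was 2274 and 2955 CPM at stage 10.5, against 2003 and 2071 CPM at stage 9.

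Elongation factors and other TOP mRNAs rose in 22 of 26 entries in +/Z embryos, with a median of 0.93, and none passed at stage 9 between the genotypes, where their median was -0.14. At stage 10.5, 3 were lower in M/Z embryos (median -0.34). Initiation factors rose in 53 of 73 entries in +/Z embryos and fell in 4 (median 0.74). Of these, 1 was higher in M/Z embryos at stage 9 and 13 were lower at stage 10.5 (median -0.32). Genes of ribosome biogenesis and RNA polymerase I rose in 68 of 86 entries and fell in 2 (median 1.06), while in M/Z relative to +/Z embryos 1 passed as higher and 8 as lower at stage 9, and 15 as lower at stage 10.5 (median -0.38). Regulators of mTOR and TOP mRNAs, S6 kinases included, rose in 8 of 34 entries and fell in 7 (median 0.09), with 1 lower in M/Z embryos at stage 9 and 2 at stage 10.5.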

How the data were processed

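The authors processed paired-end reads of poly(A) libraries (Illumina Stranded mRNA Prep) with the CSBB 3.0 pipeline: reads were mapped to *X. laevis* genome 9.2 with *bowtie2* and quantified with *RSEM* 1.3.0, and the deposited values are expected counts per gene, whole numbers not scaled for library size. The annotation and strand setting are not given in the sources used here. Of the 122 identifiers, 113 matched a symbol of RefSeq assembly 10.1.

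Tests used *edgeR* 4.0.16 (R 4.3.3) on the expected counts: TMM, filterByExpr, 1 quasi-likelihood fit of the 4 groups, Benjamini-Hochberg adjustment over all entries tested. Scripts were tested on simulated data. *DESeq2* 1.42.0, other scalings and filters, a replicate block, summed homeologs, single stages and leaving out each library were alternatives. Homeolog pairs without a count of either copy in a library (37 of all pairs) have no share and were left out of the background. The members and lists were chosen with earlier results of these data known. A further gene list is not reported here.

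Named members were up to 5 higher and 5 lower with the smallest p at each stage and over both, and the 4 largest changes between stages in +/Z embryos among those that passed. Members named beyond this rule were chosen after their values were seen, apart from the stalk and paralog genes. Libraries carry no molecular identifiers named in the sources, so duplicate reads cannot be told from separate molecules in the counts.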

Additional observations from a re-analysis of the deposited data

Results flagged for a closer look

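For 26 of the 119 ribosomal protein entries (21.8%), both M/Z libraries lay above both +/Z libraries at stage 9 and below both at stage 10.5, a pattern held by 2.69% of all tested entries. It drew attention because the genotype difference had opposite signs at the 2 stages. Among them, *rpl37.S* had fold changes of 1.46 at stage 9 and -0.87 at stage 10.5 on the log2 scale, *rps21.S* 1.09 and -0.69, and *rps27a.S* 0.56 and -1.02. The difference between the stages was tested in *edgeR*, and none of the entries passed after adjustment. Members of a pool moved together, so the 26 entries are not independent.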

How the results depend on the processing

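Counts of members called changed with the filter, the tool and single libraries. Without a filter, of 122 members 24 were called at stage 9 and 23 at stage 10.5, where 4404 and 5494 of 38597 entries were. Over both stages 12 were called and for the difference between stages 19, where 7678 and 915 entries were. *DESeq2* called 14, 15, 8 and 5 of 122 in the same order, against 3578, 4320, 6551 and 277 of 38597 entries. Stage 9 libraries alone gave 37 of 119, where 7130 of 23028 entries were called, so the members were near the share of all entries. Stage 10.5 libraries alone gave 0 of 119 higher and 1 lower, where 603 and 615 of 23997 entries were. At stage 10.5, library totals gave 0 of 119 higher and 1 lower, where 2658 and 1110 of 25448 entries were. At least 10 counts in every library gave 0 of 118 higher and 3 lower (1175 and 1096 of 18867 entries). Summed homeologs gave 0 of 79 higher and 2 lower (1346 and 1293 of 20848). Over both stages summed homeologs gave 0 of 79 (4979 of 20848). Leaving out each library in turn gave 0 to 19 calls at stage 9, 0 to 57 at stage 10.5, 1 to 20 over both stages, 0 to 26 for the difference between stages and 30 to 108 for the rise in M/Z embryos. In these fits the number of calls over all tested entries changed as well. These counts alone therefore do not separate a shift of the members from a general gain or loss of calls. Medians can be set beside those of all tested entries. For the difference between stages, without M/Z stage 10.5 replicate 1, the median was -1.28 for members and 0.00329 for all tested entries. The corresponding medians were -0.52 and -0.0159 without M/Z stage 10.5 replicate 2. The medians of the members ranged from 0.17 to 0.55 at stage 9 and from -1.28 to -0.52 for the difference between stages. They ranged from 1.76 to 2.20 for the rise in +/Z embryos and from 0.78 to 1.54 for that in M/Z embryos. At stage 10.5 the median of the members was -0.92 without M/Z stage 10.5 replicate 1, where that of all tested entries was -0.000246. Without M/Z stage 10.5 replicate 2 these medians were -0.16 and -0.0146. The share difference at stage 9 ranged from 0.0306 to 0.099 percentage points. With library totals the median of all entries was 0.22 at stage 10.5, against 0.02 with TMM, and -0.29 and -0.18 between stages in +/Z and M/Z embryos, against 0.01 and 0.02, and library totals gave a median rise of 1.71 in +/Z embryos and a median over both stages of 0.06. Within a stage, replicate numbers did not pair the libraries of the genotypes (correlations of deviations -0.0149 at stage 9 and -0.00893 at stage 10.5). Pairing between the stages was not checked. With the replicate block 6 members were higher and 0 lower at stage 9, where 1475 and 1441 of 25448 entries were. At stage 10.5, 0 were higher and 2 lower, where 1591 and 1543 entries were. The calls of *rps19.L* at stage 9, of *rpl17.L*, *rpl17.S* and *rps27a.S* at stage 10.5 and of *rps16.L* over both stages were lost with the replicate block. The cause of these changes was not tested. Among the named members' values, 245 kept their side of the threshold, 93 lost it and 0 reversed.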
